A study of Mus musculus with 6 samples.

Results

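Mitochondria of muscle fibres are remodelled by fusion, fission and mitophagy, and the transcripts of 10 genes of these processes were compared between gastrocnemius muscles with and without a constitutively active aryl hydrocarbon receptor (CAAHR). The genes were found by symbol among the 49315 genes of the deposited count table, from a list that used no measured value in its rule. They comprised the fusion GTPases Mfn1, Mfn2 and Opa1, the fission genes Dnm1l, Fis1 and Mff, the mitophagy kinase Pink1, and the mitophagy receptors Bnip3, Bnip3l and Fundc1. The muscles came from male C57BL6J mice given an intramuscular injection at 5 months of age and were harvested 5 months later. The vector was AAV9-HSA-GFP in the 3 control muscles (replicates 42, 43 and 46) and AAV9-HSA-CAAHR in the 3 others (replicates 31, 34 and 36). All muscles of both groups had thus received AAV9, an adeno-associated virus that enters muscle efficiently, and no uninjected muscle was analysed here. The promoter of both transgenes, that of human skeletal actin (HSA), works in muscle fibres and not in the blood vessel, connective tissue or immune cells around them. CAAHR is the mouse receptor without its ligand-binding domain, a transcription factor that acts without ligand. The labels did not state that each library came from a separate mouse. The p-values set group differences against the spread between these libraries, which need not equal the spread between mice.

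In fusion, mitofusins on the outer membrane tether and join neighbouring mitochondria, and Opa1 joins the inner membranes and shapes the cristae. In fission, the dynamin Dnm1l (Drp1) is recruited from the cytosol by outer membrane adaptors such as Mff and constricts the organelle. In mitophagy, damaged or surplus mitochondria are enclosed by autophagosomes, either after Pink1 builds up on the outer membrane and their surface proteins are tagged with ubiquitin, or through receptors in that membrane (Bnip3, Bnip3l, Fundc1) which bind LC3 proteins of the autophagosome. In skeletal muscle these processes keep the mitochondrial network intact and vary with activity and with fibre type.

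Polyadenylated RNA was measured at 43432994 to 58825752 assigned counts per library. Values per muscle are CPM, that is counts relative to a library total scaled by TMM (a trimmed mean of gene-wise ratios between libraries), and are given for CAAHR replicates 31, 34 and 36 and then GFP replicates 42, 43 and 46. Ahr was at a mean of 16.7 CPM in CAAHR muscles and 2.29 CPM in GFP muscles, and the AHR target Cyp1a1 at 1476 and 6.79 CPM (Benjamini-Hochberg adjusted p = 0.00229 and 1.11e-07, quasi-likelihood F test of edgeR), as the labels require. Within the CAAHR group Ahr was at 9.97, 22.8 and 17.3 CPM and Cyp1a1 at 1231, 1680 and 1517 CPM. Both were thus lowest in replicate 31 and highest in replicate 34. Fibre genes were abundant in every library, with Acta1 between 21660 and 37674 CPM. CAAHR replicate 34 stood apart from the other 2 CAAHR libraries in its slow fibre markers, whose 9 genes summed to 661 CPM there against 2818 CPM in replicate 31 and 2546 CPM in replicate 36. GFP muscles summed to 235, 343 and 474 CPM for the same list. GFP replicate 43 had the highest sum of the 6 lymphocyte markers (399 CPM, against 123 and 255 CPM in the other GFP libraries and 9.15 to 19.4 CPM in CAAHR libraries).

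None of the 10 genes was called different between the groups. All 10 passed the filter on low counts, with at least 1005 counts in every library, and 0 of 10 had an adjusted p under 0.05 by the edgeR quasi-likelihood test over 15847 genes, where 7.6% of tested genes were called (1205 genes, 481 upwards and 724 downwards). Opa1, Dnm1l, Pink1 and Fis1, 4 of 10, had an unadjusted p under 0.05, all with higher values in CAAHR, against 23.9% of all tested genes. Fitted differences were small. Of the 10 log2 fold changes (CAAHR over GFP), 9 were above 0, against 51.2% of tested genes. Their median was 0.20 and they ranged from -0.06 to 0.41, while the median over all tested genes was 0.01. In 4 of 10 genes (Opa1, Dnm1l, Mff and Pink1) all CAAHR libraries lay above all GFP libraries, a pattern held by 15.0% of tested genes. In 0 of 10 all CAAHR libraries lay below, against 2356 of the 15847 tested genes. With DESeq2, the tool named in the study's methods, 2 of the 10 had an adjusted p under 0.05 (Opa1 and Pink1, 0.0143 and 0.0352), and 12.6% of its tested genes. Their log2 fold changes by DESeq2 were 0.40 and 0.32, so that 0 of the 10 would pass with the additional cut at an absolute value of 1 which those methods give. The limma-voom test with sample weights called 1 (Opa1, adjusted p = 0.0464) and 9.22% of genes.

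**Figure D1:**
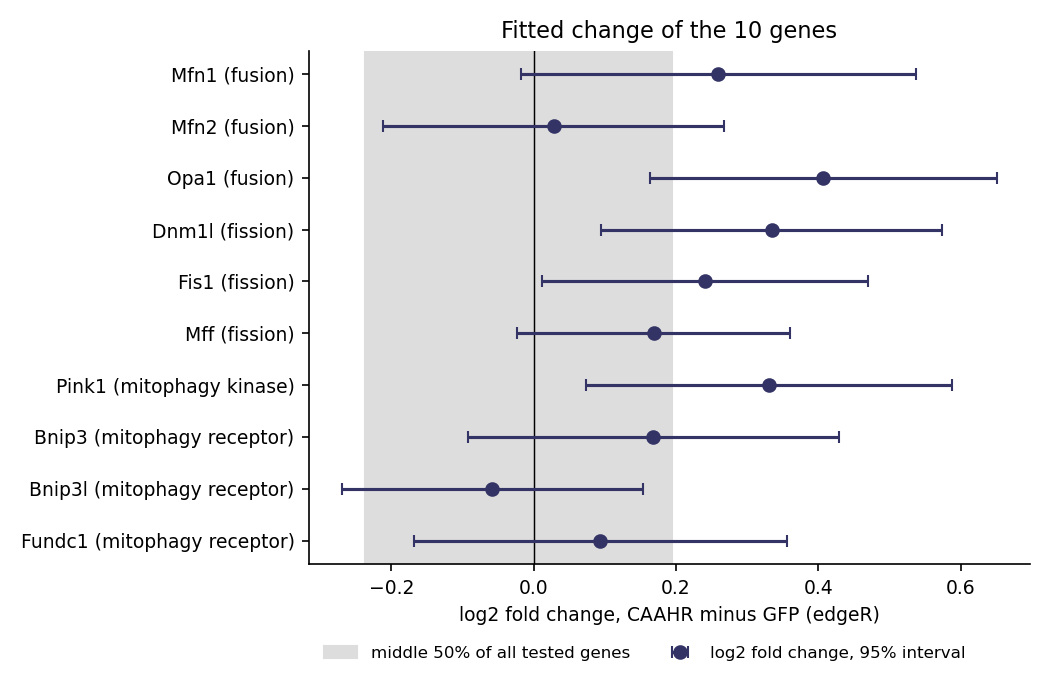
Fitted log2 fold change (CAAHR over GFP, edgeR) of each gene with its 95% interval, n = 3 libraries per group; the grey band spans the 25th to 75th percentile of all 15847 tested genes. The intervals of Opa1, Dnm1l, Fis1 and Pink1 lie above 0, those of the other 6 genes include 0, and none had an adjusted p under 0.05.

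Because CAAHR acts on transcription, the stretches upstream of the start sites were read for the core motif of the AHR:ARNT dimer, GCGTG, searched on both strands (CACGC on the opposite strand). This core is shared in part with the hypoxia-inducible factors, whose core RCGTG includes GCGTG. RefSeq windows of 250 bases before the start were available for 9 of the 10 genes (GRCm38.p6). At least 1 window of 4 of these 9 genes (44.4%) held the motif, against 48.3% of 11230 tested genes with a window. Those were Mfn2, Pink1, Bnip3 and, in 1 of its 2 windows, Dnm1l. The windows of Opa1, Mfn1, Fis1, Mff and Fundc1 held no copy. The Fundc1 window (chromosome X, 17572008 to 17572257) lay inside the annotated gene (17556564 to 17572325, minus strand). For Fundc1 the stretch before that annotated start was therefore not read. Windows of 3 genes are printed in sense with the gene, 5′ to 3′ and ending at the base before the start, with the motif in capitals, because they belong to the gene with the smallest p among the 10 (Opa1), the most abundant of them (Pink1) and the one with most copies (Bnip3).
Opa1, chr16:29579084-29579333, plus strand: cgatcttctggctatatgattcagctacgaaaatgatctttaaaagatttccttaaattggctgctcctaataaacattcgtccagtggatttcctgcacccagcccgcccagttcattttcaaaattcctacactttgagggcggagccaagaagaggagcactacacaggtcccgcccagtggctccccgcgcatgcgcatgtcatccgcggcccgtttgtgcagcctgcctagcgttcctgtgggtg
Pink1, chr4:138326297-138326546, minus strand: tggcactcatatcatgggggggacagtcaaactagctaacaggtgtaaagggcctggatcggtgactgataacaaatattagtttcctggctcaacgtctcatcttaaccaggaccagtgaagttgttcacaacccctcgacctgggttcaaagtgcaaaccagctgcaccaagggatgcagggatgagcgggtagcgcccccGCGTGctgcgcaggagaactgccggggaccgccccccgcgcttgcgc
Bnip3, chr7:138909507-138909756, minus strand: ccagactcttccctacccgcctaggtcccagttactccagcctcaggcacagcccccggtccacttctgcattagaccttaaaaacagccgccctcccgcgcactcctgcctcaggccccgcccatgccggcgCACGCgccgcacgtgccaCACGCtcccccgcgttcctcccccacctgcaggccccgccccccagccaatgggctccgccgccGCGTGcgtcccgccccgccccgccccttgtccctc
The Pink1 window held 1 copy, ending 43 bases before the start, and the Bnip3 window held 3 copies, ending 113, 95 and 31 bases before it, while the Opa1 window held 0. A match describes these letters only, and no binding was measured.

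Among the fusion genes Opa1 stood higher in CAAHR and the mitofusins overlapped between groups. Opa1 (ENSMUSG00000038084, chromosome 16, 29579334 to 29654884, GRCm38, plus strand) encodes the dynamin-like GTPase of the inner membrane. It was at 124, 101 and 104 CPM in CAAHR muscles and at 86.7, 85.4 and 76.6 CPM in GFP muscles. All 3 CAAHR values lay above the highest GFP value, and the means were 110.0 ± 12.4 and 82.9 ± 5.54 CPM (SD, n = 3). The log2 fold change was 0.41 ± 0.11 (SE, 95% interval 0.16 to 0.65) with an unadjusted p of 0.00413 and an adjusted p of 0.0517 (edgeR), the 1267th smallest of all tested genes. Without CAAHR replicate 34, Opa1 was called (log2 fold change 0.46, adjusted p = 0.0300, edgeR). That fit called 1727 of all genes, against 1205 with every library. Leaving out any other single library gave no call of Opa1 (adjusted p between 0.0954 and 0.156, edgeR). Its log2 fold change was 0.31 without CAAHR replicate 31.

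Mfn1 (ENSMUSG00000027668, chromosome 3, 32529465 to 32579239, plus strand) and Mfn2 (ENSMUSG00000029020, chromosome 4, 147873599 to 147904704, minus strand) encode the paralogous outer membrane GTPases, of which Mfn2 also tethers mitochondria to the endoplasmic reticulum. Mfn1 was at 263, 204 and 249 CPM in CAAHR muscles and 184, 195 and 220 CPM in GFP muscles. Replicates 31 and 36 lay above every GFP muscle, and replicate 34 lay within the GFP range. The log2 fold change of Mfn1 was 0.26 ± 0.12 (SE, interval -0.02 to 0.54, adjusted p = 0.238, edgeR). Mfn2 was at 673, 646 and 669 CPM in CAAHR and 648, 601 and 699.9 CPM in GFP muscles, so all CAAHR values fell inside the GFP range. Its log2 fold change was 0.03 ± 0.11 (interval -0.21 to 0.27, adjusted p = 0.91, edgeR). The interval leaves room for a change of up to 1.20-fold in Mfn2, and of up to 1.45-fold in Mfn1.

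The fission genes were each somewhat higher in CAAHR, and 0 of 3 passed the adjusted threshold. Dnm1l (ENSMUSG00000022789, chromosome 16, 16312230 to 16358959, minus strand), the GTPase that constricts mitochondria, was at 85.4, 79.8 and 74.4 CPM in CAAHR muscles and 66.2, 68.2 and 55.6 CPM in GFP muscles. The groups did not overlap, and the log2 fold change was 0.33 ± 0.11 (interval 0.09 to 0.57, unadjusted p = 0.0112, adjusted p = 0.09, edgeR). Mff (ENSMUSG00000026150, chromosome 1, 82724890 to 82752394, plus strand), the adaptor that recruits Dnm1l, was at 93.3, 95.3 and 88.3 CPM in CAAHR and 81.7, 81.2 and 83.5 CPM in GFP muscles. Its groups also did not overlap and both were tight, at 92.3 ± 3.64 and 82.1 ± 1.23 CPM, yet the fitted difference was the smallest of the 3 fission genes (log2 fold change 0.17 ± 0.09, interval -0.02 to 0.36, adjusted p = 0.268, edgeR). Fis1 (ENSMUSG00000019054, chromosome 5, 136953275 to 136966234, plus strand) encodes a small protein anchored in the outer membrane. It was at 64.3, 71.8 and 77.1 CPM in CAAHR and 56.6, 58.7 and 65.2 CPM in GFP muscles, where CAAHR replicate 31 fell below GFP replicate 46. Its log2 fold change was 0.24 ± 0.10 (interval 0.01 to 0.47, unadjusted p = 0.0417, adjusted p = 0.19, edgeR). Of the exon bases of Dnm1l, 4.67% overlap an annotated antisense gene (Gm49521), and of those of Mff, 2.0% overlap C430014B12Rik on the opposite strand. Reads there could not be separated, since strandedness was not stated.

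Pink1 (ENSMUSG00000028756, chromosome 4, 138313409 to 138326307, minus strand) encodes the kinase that phosphorylates ubiquitin on damaged mitochondria, and it was the most abundant of the 10 per length. It was at 890.1, 1039 and 1082 CPM in CAAHR muscles and 814, 783 and 798 CPM in GFP muscles. The groups did not overlap, and the spread was larger in CAAHR, with means of 1004 ± 101 and 798 ± 15.4 CPM (SD, n = 3). The log2 fold change was 0.33 ± 0.11 (interval 0.07 to 0.59, unadjusted p = 0.0171, adjusted p = 0.113, edgeR), or 1.26-fold. Within the CAAHR group it was lowest in replicate 31, where Opa1, Dnm1l and Mfn1 were highest.

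The groups overlapped for all 3 mitophagy receptors, and 0 of 3 were called by edgeR, DESeq2 or limma-voom or had an unadjusted p under 0.05 by edgeR. Bnip3 and Bnip3l (Nix) are related BH3-type proteins of the outer membrane linked to hypoxia. Bnip3l is also known for the clearing of mitochondria from maturing red cells, and Fundc1 is a hypoxia-linked receptor. Bnip3 (ENSMUSG00000078566, chromosome 7, 138890836 to 138909519, minus strand) was at 217, 191 and 187 CPM in CAAHR and 169.8, 199.9 and 160.3 CPM in GFP muscles. GFP replicate 43 exceeded 2 of the 3 CAAHR muscles, and the log2 fold change was 0.17 ± 0.12 (interval -0.09 to 0.43, adjusted p = 0.423, edgeR). Bnip3l (ENSMUSG00000022051, chromosome 14, 66985239 to 67008877, minus strand) was at 56.6, 58.8 and 55.4 CPM in CAAHR and 64.5, 59.3 and 54.0 CPM in GFP muscles. All CAAHR values fell within the GFP range, and it was the only one of the 10 with a fitted value below 0 (log2 fold change -0.06 ± 0.09, interval -0.27 to 0.15, adjusted p = 0.772, edgeR), a sign that turned to 0.02 when libraries were scaled by their size only. Fundc1 (ENSMUSG00000025040, chromosome X, 17556564 to 17572325, minus strand) was at 25.7, 25.6 and 20.8 CPM in CAAHR and 23.2, 24.2 and 20.2 CPM in GFP muscles, overlapping between groups (log2 fold change 0.09 ± 0.12, interval -0.17 to 0.36, adjusted p = 0.69, edgeR). For Bnip3, 22.3% of exon bases overlap the antisense gene Gm45507, and Bnip3l has an annotated processed pseudogene (Bnip3l-ps, chromosome 12, 18216542 to 18217673) whose reads could be confused with its own.

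**Figure D2:**
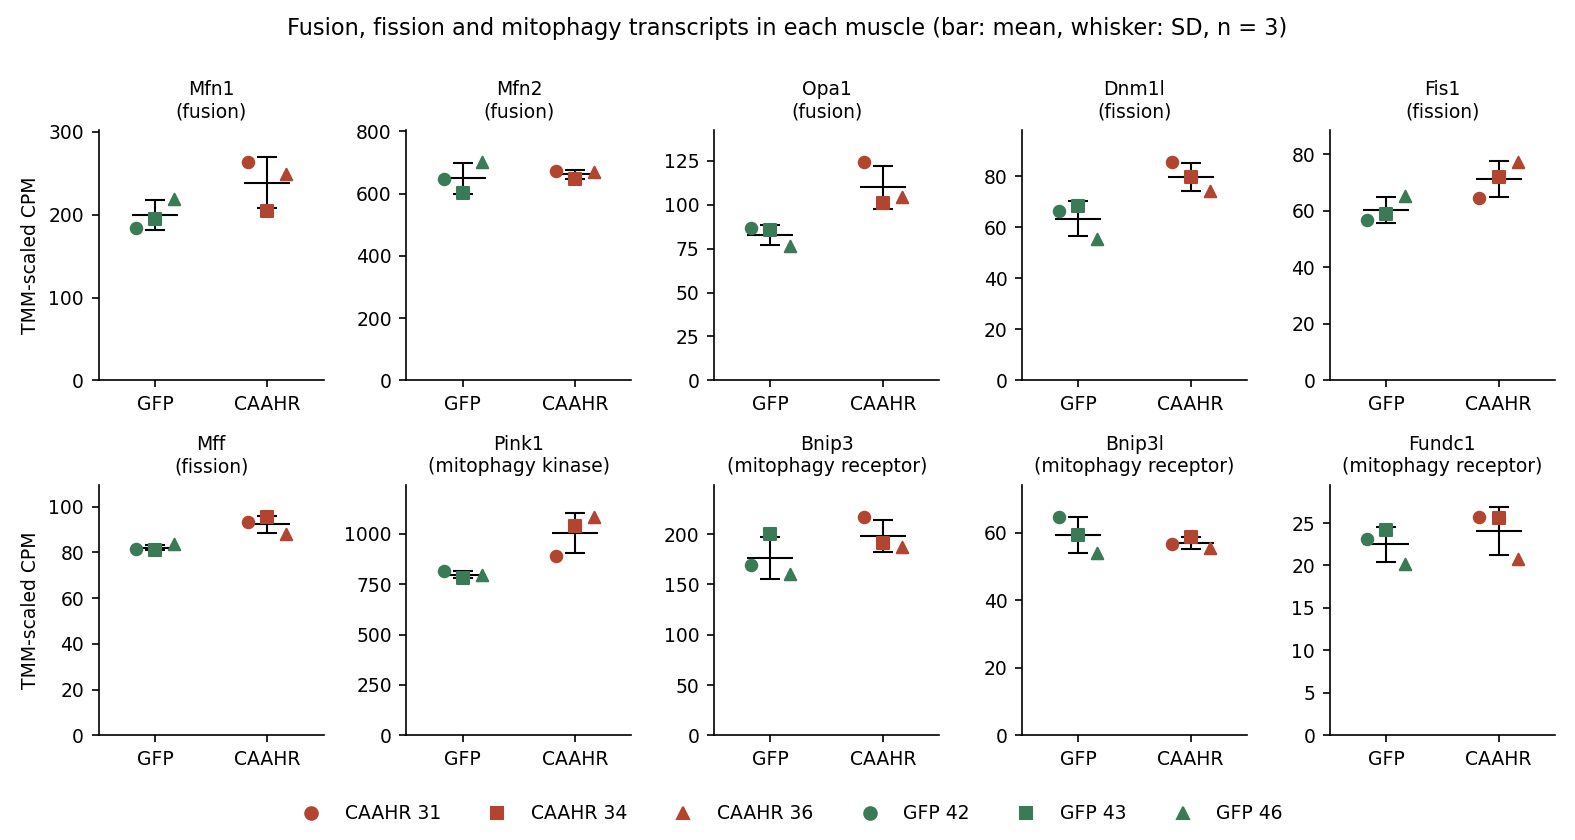
TMM-scaled CPM of each of the 10 genes in every library (each panel's axis starts at 0), with the mean and SD of 3 libraries per group. CAAHR points lie wholly above GFP points for Opa1 (101 to 124 against 76.6 to 86.7 CPM), Dnm1l, Mff and Pink1, and overlap for the other 6 genes.

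Levels between genes were compared as CPM per kilobase of exon, using the union of annotated exons. In GFP muscles Pink1 led at 299 ± 5.75 CPM per kb (SD, n = 3), followed by Mfn2 at 125 ± 9.54 and Bnip3 at 78.0 ± 9.14. Fis1 (35.1 ± 2.64) and Mfn1 (32.6 ± 2.99) overlapped in their library ranges. Bnip3l (15.4 ± 1.36) came next. The lowest levels were those of Dnm1l (12.2 ± 1.30), Opa1 (10.53 ± 0.703), Fundc1 (9.56 ± 0.878) and Mff (8.42 ± 0.126). Dnm1l and Opa1 overlapped in their ranges, and so did Opa1 and Fundc1. The outer membrane fusion GTPase Mfn2 was far above the inner membrane GTPase Opa1 on this scale. Among the tested genes of GFP muscle, Pink1 lay at the 99.5th percentile and Mff at the 80.3rd, so all 10 belonged to the more abundant transcripts of this tissue. In CAAHR muscles Pink1 was at 376 ± 37.7, Mfn2 at 128 ± 2.79 and Mff at 9.46 ± 0.373 CPM per kb. With the longest transcript in place of the exon union, Mff (16 annotated transcripts) moved from 8.42 to 21.0 CPM per kb in GFP muscles, above Bnip3l at 18.2, so its place in the order depends on the length used.

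The balance between the arms was described within each library, where the scaling of libraries cancels. The mean log2 CPM of Mfn1, Mfn2 and Opa1 minus that of Dnm1l, Fis1 and Mff was 1.81, 1.54 and 1.70 in CAAHR muscles and 1.69, 1.65 and 1.76 in GFP muscles. The means were 1.68 ± 0.14 and 1.70 ± 0.06 (SD, n = 3), a difference of -0.02 that was smaller than either SD. The difference depended on how the arms were averaged. It was -0.124 with CPM summed per arm (pooled SD 0.098) and 0.041 without the most abundant gene of each arm (pooled SD 0.130). Replicates 31 and 34, both CAAHR, marked the highest and the lowest balance of all 6. Bnip3 supplied 72.5%, 69.4% and 71.1% of the counts of the 3 receptors in CAAHR muscles and 65.9%, 70.6% and 68.4% in GFP muscles, and the groups overlapped. Mfn1 supplied 28.1%, 24.1% and 27.1% of mitofusin counts in CAAHR muscles and 22.1%, 24.5% and 23.9% in GFP muscles, a measure chosen after the values were seen and not tested. Replicates 31 and 36 lay above all GFP muscles for this share, and replicate 34 lay within the GFP range. CAAHR replicate 31 held the highest value of 5 of the 10 genes, and each of the 10 was lowest in a GFP library (5 of them in GFP replicate 46). The same shares over all tested genes were not computed, and these positions, unlike the measures above, depend on the scaling. They include genes whose groups overlapped, such as Bnip3l (54.0 CPM in GFP replicate 46, 55.4 CPM in CAAHR replicate 36).

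**Figure D3:**
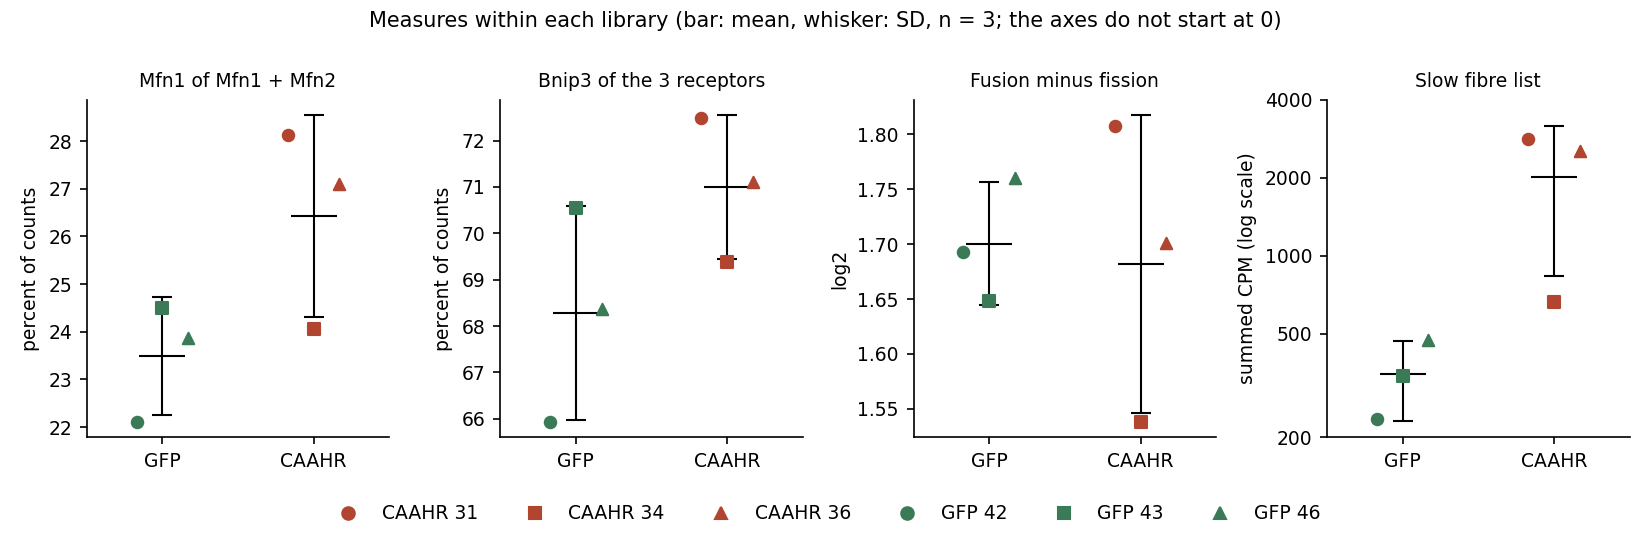
From left to right, the share of mitofusin counts from Mfn1, the share of receptor counts from Bnip3, the fusion minus fission balance (log2) and, on a log axis, the summed CPM of 9 slow fibre markers, per library with mean and SD (n = 3). CAAHR replicate 34 has the lowest value of its group in all 4 panels (24.1%, 69.4%, 1.54 and 661 CPM). The Mfn1 share was chosen after the values were seen, and Mfn1 and Mfn2 enter both it and the balance. A relation between the panels was not tested.

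To place the 10 genes in their pathway, 57 other genes in 6 lists were counted in the same fit. Of 54 tested, 4 were higher in CAAHR, 1 was lower and 49 were not called (7.6% of all tested genes were called). The median log2 fold change of the 54 was 0.10, with 38 above 0 and 16 below. The highest of the called genes was Trak1, from the list of mitochondrial transport, which links mitochondria to kinesin motors. Trak1 (chromosome 9, 121297502 to 121474918, plus strand) was at 429, 433 and 425.0 CPM in CAAHR and 259, 257 and 285 CPM in GFP muscles (log2 fold change 0.68 ± 0.10, SE, adjusted p = 0.00377, edgeR). Its 3 CAAHR values were close to each other and all above GFP. All 5 transport genes had values above 0 (median 0.40), and Rhot2, an outer membrane GTPase that binds Trak proteins, had the smallest (0.05 ± 0.10, adjusted p = 0.799). Trak2 was called without CAAHR replicate 34 and Armcx3 without GFP replicate 42 (adjusted p = 0.0106 and 0.0413, edgeR). Those fits called 1727 and 849 of all genes, against 1205 with every library.

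In the fission list 1 of 9 tested genes rose and 1 fell. The counts in this and the other lists are few and stand beside 7.6% called, 23.9% with an unadjusted p under 0.05 and 51.2% above 0 over all tested genes. Dnm2 (chromosome 9, 21424908 to 21507759, plus strand), a dynamin best known for endocytosis, was at 57.2, 59.3 and 63.2 CPM in CAAHR and 42.9, 43.02 and 44.6 CPM in GFP muscles (log2 fold change 0.46 ± 0.08, adjusted p = 0.0119, edgeR). Gdap1 (chromosome 1, 17145362 to 17164271, plus strand), an outer membrane protein of the glutathione transferase fold that promotes fission, was at 15.1, 16.7 and 8.498 CPM in CAAHR and 34.9, 36.8 and 31.7 CPM in GFP muscles. Its fold was the largest of all the genes of these lists, with a log2 fold change of -1.36 ± 0.23 (adjusted p = 0.0136, edgeR). Every CAAHR muscle was below every GFP muscle. The actin regulator Inf2 had the highest fitted value of the fission list (0.48 ± 0.19) but an adjusted p of 0.181. Without GFP replicate 42 or GFP replicate 46, Gdap1 had an adjusted p of 0.0511 or 0.0512, and without CAAHR replicate 36 or GFP replicate 43, Dnm2 had 0.0618 or 0.0552. Inf2 and Mtfr1, another gene of the fission list, were called without CAAHR replicate 34 (adjusted p = 0.0107 and 0.0189, edgeR). That fit called 1727 of all genes, against 1205 with every library.

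Of 12 tested fusion regulators, 1 rose. Slc25a46, an outer membrane protein of the carrier family that interacts with the fusion machinery, was at 69.0, 63.5 and 59.97 CPM in CAAHR and 46.7, 44.0 and 43.6 CPM in GFP muscles (log2 fold change 0.52 ± 0.09, adjusted p = 0.00941, edgeR). This gene kept its call without each library in turn, as did Trak1. With the slow fibre level of each library as a covariate all 5 called genes lost their calls, at log2 fold changes of 0.53 for Slc25a46, 0.65 for Trak1, 0.42 for Dnm2, 0.60 for Usp8 and -0.88 for Gdap1 (adjusted p between 0.0579 and 0.289, edgeR). Their SEs were 0.17, 0.16, 0.16, 0.18 and 0.38 in that order, against 0.09, 0.10, 0.08, 0.10 and 0.23 without the covariate. Of all 15847 tested genes 436 were called with the covariate, against 1205 without. The slow fibre level, centred over the libraries, was 1.90, -0.17 and 1.78 in CAAHR and -1.72, -1.16 and -0.63 in GFP muscles. It was higher in every CAAHR library, so this fit could not clearly separate it from the group. The lowest value of the fusion regulators was Chchd4 (-0.17, adjusted p = 0.404), an import receptor of the intermembrane space. Of the 8 genes of the cristae list (7 of the MICOS complex and Samm50, of the outer membrane sorting and assembly machinery that binds it), 0 were called by edgeR, DESeq2 or limma-voom, 6 were below 0 and 2 had an unadjusted p under 0.05, between Immt at 0.19 (adjusted p = 0.317) and Chchd6 at -0.45 (adjusted p = 0.15).

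The ubiquitin branch had 1 of 7 genes called. Usp8, a deubiquitinase known for endosomal sorting and mitophagy, was at 29.2, 30.99 and 30.99 CPM in CAAHR and 24.6, 22.3 and 20.2 CPM in GFP muscles (chromosome 2, 126707328 to 126759297, plus strand, log2 fold change 0.44 ± 0.10, adjusted p = 0.0273, edgeR). That call was lost without CAAHR replicate 31, CAAHR replicate 36, GFP replicate 43 or GFP replicate 46, with adjusted p of 0.0557, 0.0954, 0.0945 and 0.0887. The ATPase Vcp, which extracts ubiquitinated outer membrane proteins, had the lowest value of the branch (-0.11, adjusted p = 0.621). Of 13 other tested mitophagy receptors and adaptors 0 were called by edgeR and 11 were above 0, with 3 at an unadjusted p under 0.05 and 1 (Optn) called by DESeq2. They ran from Nipsnap1 at -0.50 (adjusted p = 0.412) to the ubiquitin-binding adaptor Optn at 0.45 ± 0.13 (adjusted p = 0.0651, edgeR), which was called without GFP replicate 43 (adjusted p = 0.0452). The 3 genes that were not tested were Pld6 and Mtfr2, with 3 to 14 counts per library, and Calcoco2, at 0 counts in every library.

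**Figure D4:**
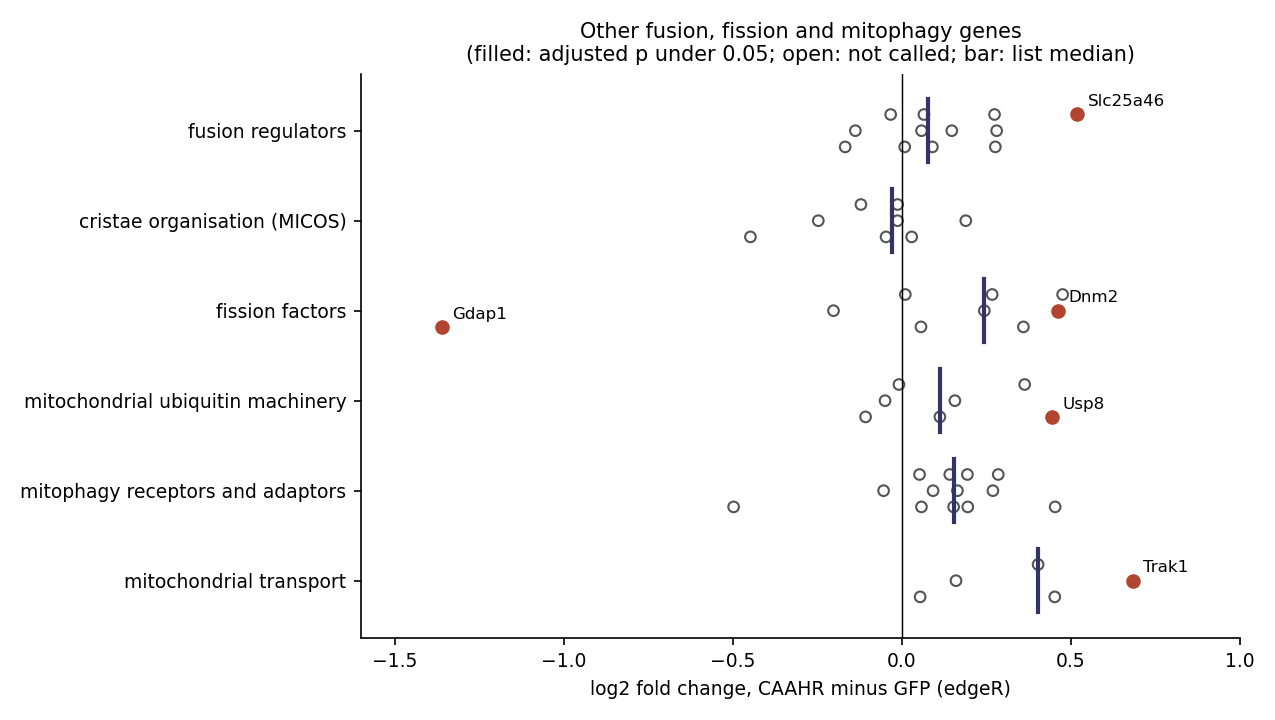
Log2 fold change (CAAHR over GFP, edgeR) of 54 other fusion, fission and mitophagy genes by list, with the list medians as bars and called genes filled and named. The 5 called genes run from Gdap1 at -1.36 to Trak1 at 0.68, and medians lie between -0.03 (cristae list) and 0.40 (transport).

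Other contents of the muscles moved with the groups, and their part in these values was not tested. In bulk tissue, fewer fibres or cells of a type and less RNA per cell cannot be told apart. The 9 slow fibre markers had log2 fold changes above 0 in 9 of 9 (median 2.36, 8 with an unadjusted p under 0.05, 0 called by edgeR, 8 by DESeq2 and 9 by limma-voom), and Myh7, the slow myosin, was at 877, 156 and 809 CPM in CAAHR and 37.5, 52.6 and 79.5 CPM in GFP muscles. The 10 fast fibre markers had a median of -0.46 with 3 called lower, and summed to 144128 to 203512 CPM in CAAHR and 206954 to 216059 CPM in GFP muscles. Of these 10, 9 were below 0 and 1 was above, at 0.997. The 5 general fibre markers summed to 52503 to 56810 CPM in CAAHR and 77939 to 83386 CPM in GFP muscles, with 2 called lower (median -0.48). Of these 5, 3 were below 0 and 2 were above, the highest at 1.03. By contrast, the 12 genes taken as a reference for mitochondrial content (among them Cs and Tomm20) had a median of -0.02, with 0 called by edgeR, DESeq2 or limma-voom and 1 at an unadjusted p under 0.05, and summed to 6253 to 7222 CPM in CAAHR and 6455 to 7469 CPM in GFP muscles, overlapping between groups. Summed levels of the 10 fusion, fission and mitophagy genes were 2492 to 2607 CPM in CAAHR and 2155 to 2233 CPM in GFP muscles, and Pink1 alone supplied 59.9% of the difference between the group means.

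Among other cell types, the 8 macrophage markers were below 0 in 8 of 8 (median -1.15, 7 with an unadjusted p under 0.05, 0 called by edgeR, 6 by DESeq2 and 0 by limma-voom) and summed to 15.3 to 25.8 CPM in CAAHR and 28.8 to 66.5 CPM in GFP muscles. Of the 6 lymphocyte markers 4 were tested and 2 were called lower, and of the 5 adipocyte markers 1 was called lower (sums of 85.1 to 133 CPM in CAAHR and 88.9 to 199.5 CPM in GFP muscles). The 4 endothelial markers (144 to 209 and 140 to 181 CPM), the 4 fibroblast markers (276 to 506 and 394 to 485 CPM) and the 5 erythroid markers (100.3 to 227 and 101 to 185 CPM) overlapped between groups, with 0 called by edgeR, DESeq2 or limma-voom and 0, 0 and 1 at an unadjusted p under 0.05. No marker of these lists was at 0 in every library. The authors report a local immune response of muscle to the AAV9-GFP control vector. By their qPCR, selected immune genes were not lower in CAAHR muscle than in muscle of mice without AAV. No uninjected muscle was among the libraries here, so these counts alone cannot assign the lower immune markers to CAAHR or to the GFP vector.

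Calls among the 10 genes depended on the processing. With libraries scaled by size only, 3 of the 10 were called (Opa1, Dnm1l and Pink1, adjusted p = 0.0334, 0.0450 and 0.0475, edgeR) and 9.31% of all genes, while the median of all genes moved from 0.01 to 0.09. The share of higher against lower calls moved with the scaling, from 481 against 724 by TMM to 876 against 600 by library size and 358 against 990 by upper quartile. With the mean slow fibre level of each library as a covariate, 0 of the 10 were called and 436 of all 15847 tested genes. That level was higher in every CAAHR library than in every GFP library. In this fit Mfn1 went from 0.26 to -0.15 and Mfn2 from 0.03 to -0.07, while Dnm1l and Pink1 were at 0.42 and 0.43. Upper quartile scaling put Mfn2 at -0.04. Opa1, Dnm1l, Fis1, Mff, Pink1, Bnip3 and Fundc1 stayed above 0 under all 15 alternatives.

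**Figure D5:**
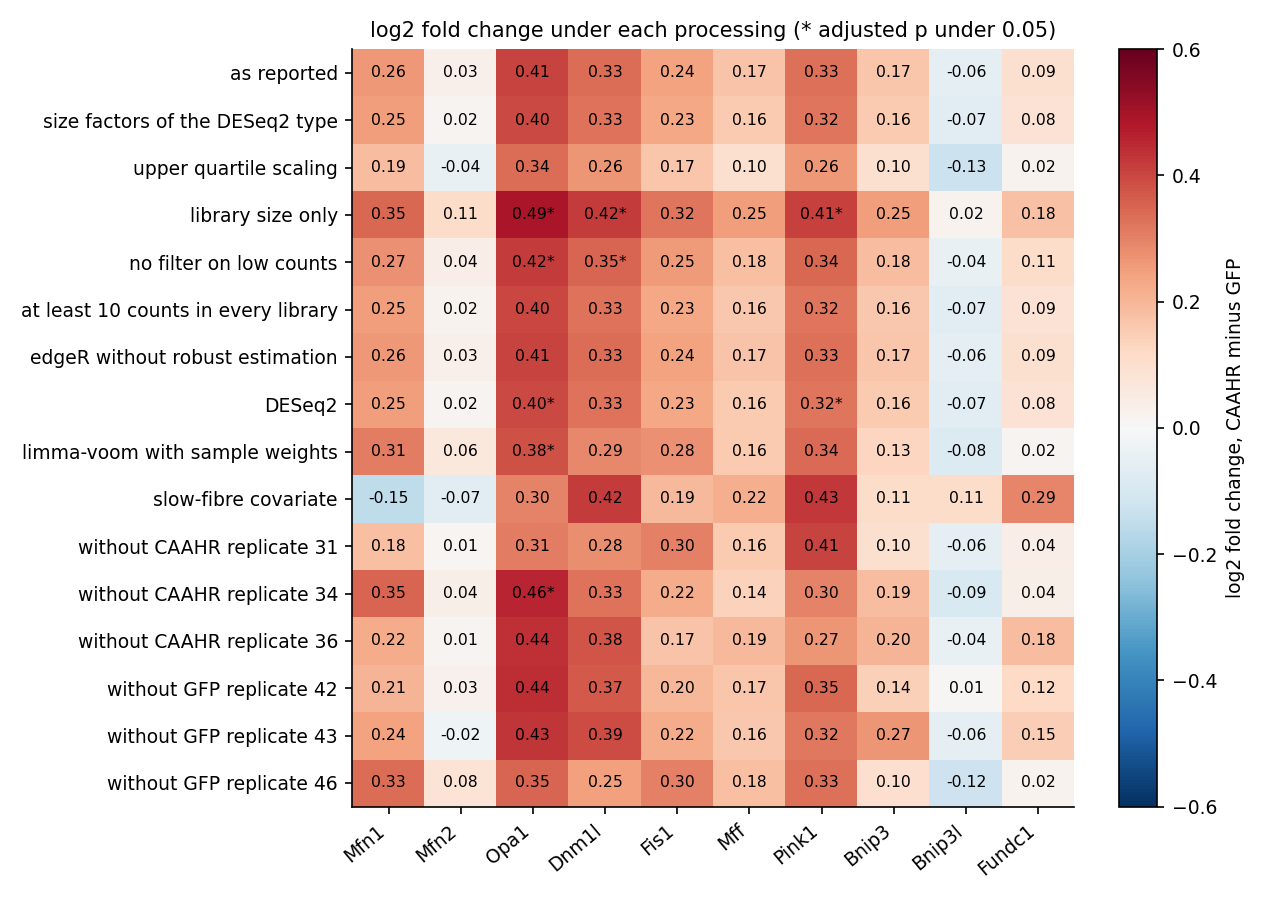
Log2 fold change (CAAHR over GFP) of the 10 genes (columns) as reported and under 15 alternatives (rows), coloured from -0.6 to 0.6, with a star at an adjusted p under 0.05. Stars occur for Opa1 in 5 alternatives and for Dnm1l and Pink1 in 2 each, and negative values occur only for Mfn1, Mfn2 and Bnip3l.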

How the data were processed

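The deposited table held raw counts by gene, as whole numbers, for 6 libraries. As the authors describe, polyadenylated RNA was sequenced in pairs, reads were trimmed (Trimmomatic 0.36), aligned to GRCm38 (STAR 2.5.2b) and uniquely assigned to exons with featureCounts. Library strandedness was not given in the sources used here. Positions and exon lengths were from GENCODE M21 (48970 of 49315 genes). The 174 genes without a symbol held 0.0154% of counts and were kept.

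Groups were compared with edgeR 4.0.16 in R 4.3.3 (filterByExpr, TMM scaling, robust quasi-likelihood F test, Benjamini-Hochberg adjustment over 15847 genes, threshold 0.05). SEs were derived from the F statistic, and 95% intervals from its t equivalent. Alternatives were DESeq2 (version 1.42.0 here; the tool but not its version is named by the authors), limma 3.58.1 voom, other scalings and filters, a slow-fibre covariate, and leaving out each library. Replicates of a group were no repeats of 1 library, since every pair differed by far more than counting noise (chi-square over degrees of freedom 21.6 or more). Intervals cover the spread between libraries.

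The 10 genes were listed by function, by a rule without measured values, but they, the other lists and the alternatives were chosen with earlier results of these data known. Named were the 10 genes and, of the pathway lists, every called gene and the highest and lowest value per list. Itgam had 2 rows, and the one with more counts was used.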

Additional observations from a re-analysis of the deposited data

How the results depend on the processing

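No paired analysis was possible because no replicate number occurs in both groups. Each of the 10 genes had at least 1005 counts in every library, and the intervals rest on 3 libraries per group. Over all genes 1205 were called, against 2470 without a filter on low counts, 1923 with DESeq2, 436 with the slow-fibre covariate and 530 to 1727 without each library in turn. Of the 10 genes 0 were called, against 3 with library size only, 2 without a filter, 2 with DESeq2, 1 with limma-voom and 0 to 1 without each library. Of the other 54 pathway genes 5 were called, against 10 with library size only, 10 without a filter, 8 with DESeq2, 0 with the covariate and 3 to 8 without each library (8 without CAAHR replicate 34, 3 without CAAHR replicate 36 or GFP replicate 46). The fusion minus fission difference moved from -0.02 to -0.12 with CPM summed per arm and lay between -0.08 and 0.05 without each library, and that of the Bnip3 share between 1.54 and 3.85 percentage points. With the longest transcript as length, levels in GFP muscles (CPM per kb) were 336 for Pink1, 149.6 for Mfn2, 101 for Bnip3, 63.5 for Fis1, 43.7 for Mfn1, 21.0 for Mff, 18.2 for Bnip3l, 16.0 for Dnm1l, 13.3 for Opa1 and 11.3 for Fundc1, higher because that length is shorter than the exon union. The covariate turned the sign of Mfn1 (-0.15), Mfn2 (-0.0667), Bnip3l (0.11), Immt (-0.0234), Inf2 (-0.36), Vcp (0.0916), Nipsnap1 (0.0545) and Rhot2 (-0.15). Upper quartile scaling turned Mfn2 (-0.0447) and Rhot2 (-0.0183), and library size only Bnip3l (0.0228). Without each library in turn Mfn2 ran from -0.0248 to 0.0839 (lowest without GFP replicate 43), Bnip3l from -0.12 to 0.00910 (highest without GFP replicate 42) and Rhot2 from -0.0198 to 0.103 (lowest without GFP replicate 42). None of these was called. Of 150 values of the 10 genes over 15 alternatives, 134 kept direction and side of the threshold, 9 gained a call and 7 turned. The causes were not tested.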
